A study of Mus musculus with 24 samples.

Results

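The Smad family of mouse has 8 genes, Smad1 to Smad7 and Smad9, and was taken here as the rows of the deposited tables that carry these symbols. All 8 were in both tables, of 19780 genes in the table for control cells and 19979 in the table for paused cells. The study sequenced poly(A) RNA of E14 cells, an established line of mouse embryonic stem cells, in serum medium with leukaemia inhibitory factor. Wild-type cells and 2 lines labelled Smad2_KO1 and Smad2_KO2 were each grown without an added inhibitor (control) or with 200 nM INK128, an mTOR inhibitor, for 12 hours (paused), with 4 libraries in each of the 6 groups. All cells thus share the E14 background, the serum and the cytokine, and how the Smad2 alleles were altered, or whether each line is 1 clone, is not given in the sources used here. The question for this family is how far the mRNA of Smad2 fell in the knockout and whether its relatives changed with it, in each condition.

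Smad proteins carry signals of the TGF-beta superfamily from receptors at the cell surface to the nucleus. Smad2 and Smad3 are phosphorylated by receptors for Nodal, activin and TGF-beta, whereas Smad1, Smad5 and Smad9 (once called Smad8) are phosphorylated by BMP receptors. Both kinds join Smad4, the shared partner, to bind target genes, and Smad6 and Smad7 are inhibitory members that block receptors or Smad complexes and are themselves induced by the pathway. In mouse embryonic stem cells BMP signalling through Smad1 and Smad5 induces Id genes, and Nodal signalling through Smad2 and Smad3 induces Lefty1 and Lefty2.

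The values are the authors' results per gene and not single libraries, so no value per sample can be shown, the depth of each library is unknown, and errors are the standard errors (SE) of the deposited tables. Nothing in the labels says that the 4 libraries of a group came from separate cultures, so these errors may be technical. The tables do not name the numerator of the log2 change or the libraries compared. Changes are read as knockout over wild type because Smad2 is lower in both tables, and the 2 knockout lines cannot be separated. Of 8 fixed markers of embryonic stem cells, all were found, with summed mean levels of 5088 ppm (a gene's mean count scaled so that the mean counts of its table sum to 1e+06) in control and 4532 ppm in paused cells. Of these, Klf4 (0.56, adjusted p 5.03e-18, and 0.26, adjusted p 3.05e-05) and Nanog (0.32 and 0.18) were higher in both of the authors' deposited tables, while Pou5f1 was lower in control (-0.18) and Tdgf1 in paused cells (-0.21). Of 5 primitive endoderm markers, all were present at low level, with sums of 19.3 and 38.7 ppm, and all 5 rose in the knockout in both of the authors' deposited tables, where 14.3% of the genes in both tables did. Other marker lists fell in part, with 3 of 4 fibroblast markers (sums 17.6 and 17.8 ppm), 2 of 3 neuroectoderm markers (57.5 and 55.4 ppm) and 2 of the 3 mesoderm markers found (8.18 and 7.86 ppm) lower in both of the authors' deposited tables, where 16% of genes were. Sox1, of the neuroectoderm list, was higher in both. Of 5 trophoblast markers (348 and 418 ppm), 1 was lower in each of the authors' deposited tables and none higher. The part of such cells in the changes of the Smad genes was not tested. In RNA from a whole culture, fewer cells of a type and less RNA per cell cannot be told apart.

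Levels of the 8 genes were compared per kilobase of exon, as ppm per kb averaged over both genotypes. Averaged in this way, Smad4 was the highest, at 22.6 in control and 25.4 in paused cells, followed by Smad7 at 13.4 and 22.8. Smad2 (7.72 and 8.26), Smad6 (7.50 and 7.36) and Smad5 (6.24 and 6.01) formed a middle group in both conditions. Smad3 stood at 4.64 ppm per kb in control and 2.69 in paused cells, and Smad1 at 2.32 and 3.09, so that these neighbours changed places between the tables. Per kb of its longest transcript, in place of all its exons joined, Smad1 stood at 3.85 and 5.12, with the order of the members kept. Smad9 was the lowest by far, at 0.285 and 0.393 ppm per kb. Whether neighbours in this order differ beyond the spread of libraries could not be tested. Levels for each genotype were estimated from the mean and the change, taking the mean as that of 4 wild-type and 8 knockout libraries and the change as knockout over wild type, neither of which the tables state. In the estimated wild type, Smad7 and Smad4 were level in paused cells, at 27.7 ppm per kb each. Smad5 stood above Smad6 there, at 6.41 against 5.66 in control and 6.44 against 5.29 in paused cells, the reverse of their order in the pooled means. Both statements rest on that reading. With the change read as wild type over knockout, the wild type of paused cells had Smad4 at 23.1 and Smad7 at 18.4 ppm per kb. Read so, Smad6 stood above Smad5 in the wild type, at 9.59 against 6.08 in control and 9.77 against 5.60 in paused cells.

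**Figure D1:**
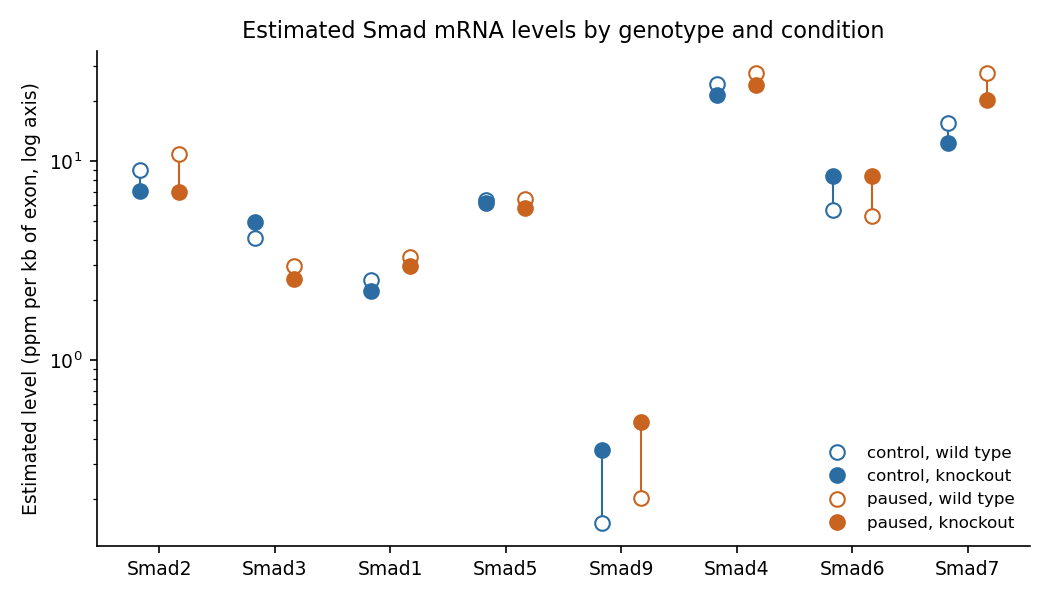
Estimated mRNA level of each Smad gene (ppm per kb of exon, log axis) in wild type (open points) and knockout (filled points) of control (blue) and paused (orange) cells, each estimated from the authors' deposited mean and log2 change, with no error bars. Smad9 lies lowest and rises in both conditions, Smad6 rises in both, and the knockout point of Smad3 lies above the wild type in control cells and below it in paused cells.

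In the authors' deposited control table, 7 of the 8 members had an adjusted p under 0.05, 3 of them higher and 4 lower. Over all genes of that table the share called was 41.4%, with 19.5% higher and 21.9% lower. The authors' deposited paused table also called 7 of 8 members, 2 higher and 5 lower, where the share over all genes was 42.6%, with 20.5% higher and 22% lower. The median change of the members was -0.12 in control and -0.17 in paused cells, against medians of all genes within 0.01 of 0. Smad6 and Smad9 rose in both conditions, and Smad1, Smad2, Smad4 and Smad7 fell in both. Over the 19134 genes in both tables, 14.3% were called higher in both and 16% lower in both. When each DESeq2 statistic was divided by the middle spread of its table (2.76 and 2.80, where 1 is that of a standard normal), no member was called in control cells, with Smad6 and Smad9 at an unadjusted p under 0.05. Smad2 and Smad6 were still called in paused cells.

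Smad2, the targeted gene, lies on chromosome 18 (GRCm38, chr18:76241580-76310963, plus strand). With a mean of 3123 normalized counts in the authors' deposited control table, it fell there by 0.35 on the log2 scale (SE 0.07, adjusted p 6.5e-06). The sign of this value is set by the reading of the table and is no finding, and the test bears only on its size. Read so, it is 78.6% of the wild-type level, with a 95% interval of 71.4% to 86.5%. The fall was larger in the authors' deposited paused table, where it fell by 0.63 at a mean of 3214 normalized counts (SE 0.06, adjusted p 4.1e-26), to 64.6% of the wild type (95% interval 59.8% to 69.8%). Most of the Smad2 transcript level was thus still counted in the libraries labelled knockout. A count of mRNA does not show whether the transcript codes for protein. Among genes with a mean within 2-fold of that of Smad2, 12.4% of 3933 in control cells had a change at least as large, and 2.9% of 3971 in paused cells. The change of Smad2 in control cells did not pass a test for more than a 1.2-fold change (adjusted p 0.473).

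Smad3, the closest relative of Smad2 and the other carrier of Nodal and activin signals, lies on chromosome 9 (chr9:63646767-63757994, minus strand). It rose in control cells, by 0.26 in the authors' deposited table (SE 0.06, adjusted p 1.55e-04), from a mean of 1185 normalized counts. This corresponds to 120% of the wild type (95% interval 110% to 131%). A change at least as large was found for 44.5% of all genes in control cells. The share was 26.9% of the 4405 genes with a mean within 2-fold of that of Smad3. The control call of Smad3 was lost in the test for more than a 1.2-fold change. Dividing the statistic by the middle spread of its table also removed this call. In paused cells the change of Smad3 in the authors' deposited table was -0.21 (SE 0.09, mean 660 normalized counts) and was not called (adjusted p 0.0546). Thus the value lay above the wild type in 1 condition and below it in the other. The paused change minus the control change was -0.48 (SE 0.11, 95% interval -0.70 to -0.25), which passed the test of the difference over all genes (adjusted p 0.00604). Smad3 was the only member called for this difference, where 1.44% of 19134 genes were called, 0.716% with a higher and 0.721% with a lower value in paused cells. It ranked as number 78 of all genes by p. With that statistic rescaled so that its middle spread over all genes equals that of a standard normal, the Smad3 difference was no longer called (adjusted p 0.148).

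The change of Smad2 itself also tended lower in paused cells, by -0.28 (SE 0.09), and did not pass over all genes (adjusted p 0.0843). For the other 6 members the difference between conditions lay between -0.12 (Smad7) and 0.09 (Smad6), and none was called (lowest adjusted p 0.647). The 95% intervals of these differences were narrow for Smad4 (-0.13 to 0.12) and wide for Smad9 (-0.48 to 0.60). The precision for Smad9 was thus the lowest of the family.

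**Figure D2:**
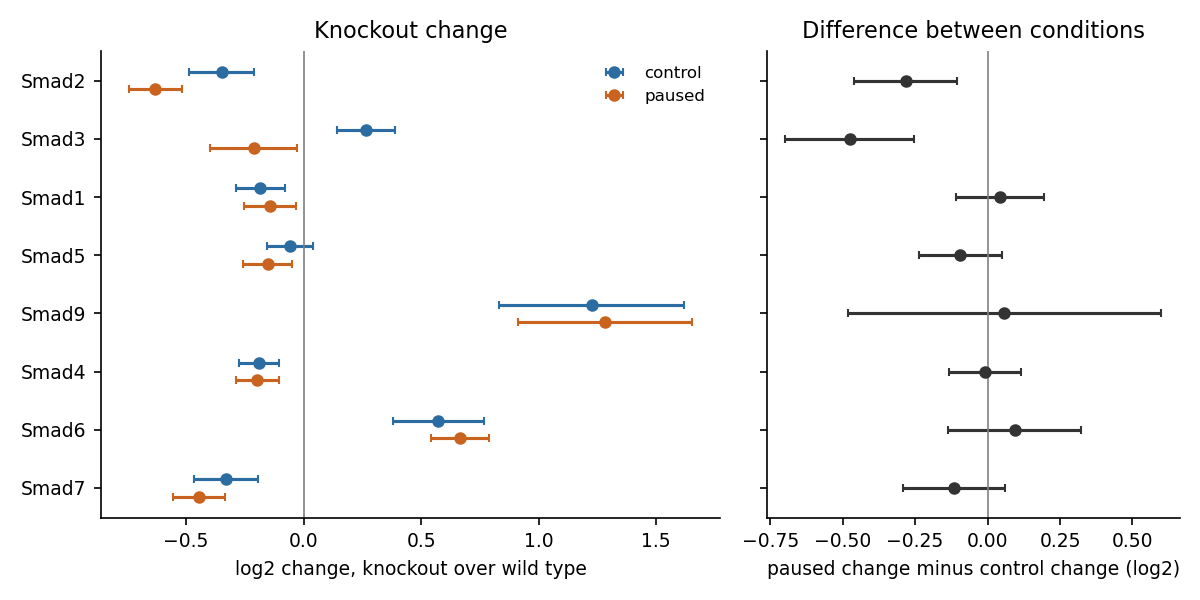
Left, log2 change of each Smad gene, knockout over wild type, in the authors' deposited tables for control (blue) and paused (orange) cells; right, the paused change minus the control change; bars are 95% intervals from the standard errors, not adjusted for the number of genes. The intervals of Smad3 lie on opposite sides of 0 in the 2 conditions, and its difference of -0.48 is the farthest from 0.

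The mediators of BMP signals moved less, except for Smad9. Smad1 (chr8:79338395-79399518, minus strand) fell by 0.18 in the authors' deposited control table (SE 0.05, adjusted p 0.00241, mean 670 normalized counts). Its fall in the authors' deposited paused table was by 0.14 (SE 0.06, adjusted p 0.0309, mean 856 normalized counts). These are 88.0% and 90.7% of the wild type, and changes of this size were common, since 57.0% and 61.8% of all genes had one at least as large. Smad5 (chr13:56703010-56742377, plus strand), the most abundant of these mediators, was not called in the authors' deposited control table (-0.06, SE 0.05, adjusted p 0.371). It fell by 0.15 in the authors' deposited paused table (SE 0.05, adjusted p 0.0132). The paused calls of Smad1 and Smad5 were both lost with equal summed counts in the genotypes (adjusted p 0.121 and 0.0666).

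Smad9 (chr3:54755582-54801257, plus strand) had the largest change of the family in both conditions. It rose by 1.23 in the authors' deposited control table (SE 0.20, adjusted p 1.68e-08), where its mean was 70.5 normalized counts. Its rise in the authors' deposited paused table was 1.28 (SE 0.19, adjusted p 1.68e-10), with a mean of 93.5 normalized counts. This is 2.34-fold (95% interval 178% to 307% of the wild type) and 2.43-fold (188% to 314%). Changes at least as large were found for 4.77% of all genes in control and 4.5% in paused cells. Among genes with a mean within 2-fold of that of Smad9, the shares were 6.97% of 2741 and 6.36% of 2783. Its estimated level went from 0.151 to 0.352 ppm per kb in control cells and from 0.201 to 0.489 in paused cells, with changes read as knockout over wild type. Read the other way, it went from 0.461 to 0.197 in control and from 0.648 to 0.266 in paused cells. By either reading Smad9 stayed below every other member in both genotypes.

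Smad6 and Smad9 were the members that rose in both conditions, so the 250 bases before their RefSeq starts (GRCm38.p6) are shown, 5′ to 3′ on the strand of the gene. They were searched on both strands for GGCGCC, a motif bound by BMP-activated Smads, for CAGAC, which holds the core bound by Smad3 and Smad4 and reads GTCTG on the other strand, and for the palindrome GTCTAGAC, a high-affinity Smad3 and Smad4 site. Capitals mark the matches.
Smad9, chr3:54755332-54755581, plus strand: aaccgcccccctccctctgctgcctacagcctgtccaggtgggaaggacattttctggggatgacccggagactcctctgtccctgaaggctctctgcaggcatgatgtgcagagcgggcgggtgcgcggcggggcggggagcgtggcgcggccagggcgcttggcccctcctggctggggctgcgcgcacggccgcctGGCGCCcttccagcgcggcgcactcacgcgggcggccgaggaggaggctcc
Smad6, chr9:64022060-64022309, minus strand: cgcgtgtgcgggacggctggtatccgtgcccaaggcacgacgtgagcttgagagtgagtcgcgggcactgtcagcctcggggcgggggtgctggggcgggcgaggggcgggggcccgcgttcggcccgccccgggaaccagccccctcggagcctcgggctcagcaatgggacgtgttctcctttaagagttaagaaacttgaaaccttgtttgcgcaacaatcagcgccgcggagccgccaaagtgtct
The Smad9 window holds 1 GGCGCC and the Smad6 window none. Of 32851 promoter windows of this length, 9.59% hold GGCGCC, 42.2% hold CAGAC and 0.167% hold GTCTAGAC. The windows of Smad1 and Smad3 hold none of these motifs. Of the 3 windows of Smad5, 1 holds GGCGCC and 1 holds CAGAC. These matches describe the letters only.

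Smad4, the partner common to both branches (chr18:73639009-73703780, minus strand), fell slightly in both conditions. Its change was -0.19 in the authors' deposited control table (SE 0.04, adjusted p 8.48e-05, mean 3863 normalized counts). Paused cells gave -0.20 in the authors' deposited paused table (SE 0.05, adjusted p 1.21e-04, mean 4171 normalized counts). The knockout thus kept 87.8% and 87.3% of the wild-type level, and the 2 changes differed by 0.01 on the log2 scale, well within the standard error of 0.06.

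The inhibitory members went in opposite directions. Smad6 (chr9:63953076-64022059, minus strand), which acts mainly against BMP signalling, rose by 0.57 in the authors' deposited control table (SE 0.10, adjusted p 9.87e-08, mean 1107 normalized counts). Paused cells gave a rise of 0.67 in the authors' deposited paused table (SE 0.06, adjusted p 4.25e-24, mean 1045 normalized counts). The knockout levels were 149% (95% interval 130% to 170%) and 159% (146% to 173%) of the wild type. Smad7 (chr18:75367529-75395935, plus strand), which acts against both branches, fell by 0.33 in the authors' deposited control table (SE 0.07, adjusted p 1.26e-05, mean 2791 normalized counts). In the authors' deposited paused table it fell by 0.44 (SE 0.06, adjusted p 1.7e-13, mean 4572 normalized counts). The knockout kept 79.6% (95% interval 72.5% to 87.4%) and 73.5% (68.0% to 79.4%) of the wild-type level, beside 78.6% and 64.6% for Smad2. In control cells the Smad7 call was lost in the test for more than a 1.2-fold change (adjusted p 0.613), while those of Smad6 and Smad9 were kept.

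The members were then summed by branch, per kb, to set the gains of relatives beside the loss of Smad2. In control cells the estimated Smad2 level fell by 1.93 ppm per kb and that of Smad3 was 0.822 higher, a gain equal to 42.6% of the loss. With the change read as wild type over knockout, Smad2 would instead be 1.78 higher in the knockout and the Smad3 difference -0.874, or 49.0% of that gain. The sum of Smad2 and Smad3 went from 13.1 to 12.0 ppm per kb, or 91.5% of the wild type (95% interval 85.5% to 98.0%). In paused cells the estimated Smad2 level fell by 3.83 ppm per kb, and the difference of Smad3 was -0.405. There the sum went from 13.8 to 9.54 ppm per kb, or 69.3% of the wild type (64.8% to 74.0%). Read as wild type over knockout, the sum of Smad2 and Smad3 went from 11.8 to 12.7 in control and from 8.48 to 12.2 in paused cells. With changes read as knockout over wild type, Smad3 made up 31.2% of this sum in wild-type and 41.0% in knockout control cells, and 21.5% and 26.8% in paused cells. The other reading gives 44.4% and 34.3% in control and 28.7% and 23.1% in paused cells, so that the direction of this move is set by the reading.

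The sum of Smad1, Smad5 and Smad9 stood at 96.1% of the wild type in control cells (95% interval 91.2% to 101%) and at 93.3% in paused cells (88.5% to 98.4%). The rise of Smad9 added little to it, 0.202 and 0.288 ppm per kb. Smad9 accounted for 4.03% and 5.28% of this sum in the knockout, or, with the change read as wild type over knockout, for 2.20% and 2.75%. By that other reading the sum of all 3 went from 8.67 to 8.94 ppm per kb in control and from 9.14 to 9.67 in paused cells. The sum of the inhibitory members Smad6 and Smad7 was at 98.1% of the wild type in control cells (90.9% to 106%) and 87.1% in paused cells (81.8% to 92.8%). Within it, the share of Smad6 went from 26.7% to 40.5% in control cells and from 16.0% to 29.2% in paused cells. With the change read the other way, it went from 45.6% to 31.0% and from 34.7% to 19.7%. Read so, the sum of Smad6 and Smad7 went from 21.0 to 20.8 ppm per kb in control and from 28.2 to 31.2 in paused cells. The intervals of the branch sums treat the members' errors as independent and cover the error of the changes only.

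**Figure D3:**
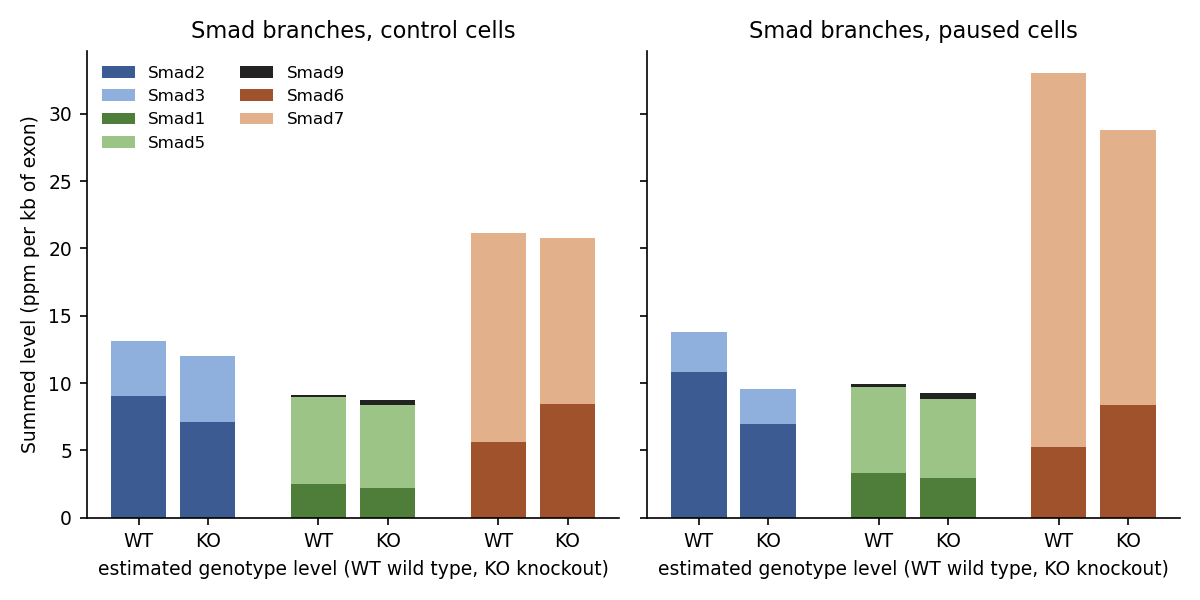
Estimated levels (ppm per kb of exon, bars from 0, no error bars) stacked by branch for wild type (WT) and knockout (KO), in control (left) and paused (right) cells. Changes are read as knockout over wild type. The Smad2 and Smad3 stack goes from 13.1 to 12.0 in control and from 13.8 to 9.54 in paused cells. The Smad6 part of the inhibitory stack grows in both.

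Levels of the members also differed between the tables, which were normalized separately, so these ratios are a description with no test. At equal summed counts, the estimated wild-type level of Smad7 in paused cells was 1.79 times that in control cells, and that of Smad3 was 0.722 times. In the knockout these ratios were 1.65 for Smad7 and 0.519 for Smad3. Read as wild type over knockout, the change gives 1.61 and 1.74 for Smad7 and 0.465 and 0.647 for Smad3, in wild type and knockout. Over both genotypes, the mean of Smad7 stood at 1.7 times and that of Smad3 at 0.579 times the control level. Among the 10484 genes with at least 5 ppm in both tables, 14.3% and 13.4% had ratios as far from 1. Smad1 (1.33 times) and Smad9 (1.38 times) stood higher in the paused table, and the pooled means of Smad2, Smad4, Smad5 and Smad6 lay between 0.963 and 1.12 times. By genotype, the ratio of Smad2 was 1.2 in the estimated wild type and 0.987 in the knockout, or 0.926 and 1.13 with the change read as wild type over knockout. Scaling to equal medians moved the log2 ratios by 0.06 and turned no direction for Smad1, Smad3, Smad7 or Smad9.

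Smad2, Smad4 and Smad7, which all fell, lie on chromosome 18. The median change of the other genes of that chromosome was -0.05 in control and -0.04 in paused cells, less than the falls of these members. For chromosomes 3, 8, 9 and 13 the medians lay between -0.05 and 0.01. The nearest measured gene to Smad2, 93 kb away, was Zbtb7c, which rose by 0.96 and 1.15 in the authors' deposited tables for control and paused cells (adjusted p 5.93e-20 and 3.33e-20). Gm20544, annotated 441 bp before the start of Smad7, was lower, at -0.75 and -0.84, in the authors' deposited tables (adjusted p 2.77e-10 and 5.6e-14). Ctif, 35 kb from Smad7, was higher, at 0.21 and 0.36, in the authors' deposited tables (adjusted p 0.0232 and 2.05e-04). Gm10532, 119 kb from Smad7, was also higher, at 1.70 and 0.93, in the authors' deposited tables (adjusted p 5.17e-06 and 0.0282). On the other side of Smad7, 2010010A06Rik (70 kb) and Dym (81 kb) were called in neither of the authors' deposited tables (lowest adjusted p 0.303, for Dym). Of the 3 nearest measured genes beyond the far end of Smad2, Ier3ip1 was lower in the authors' deposited control table (-0.19), Katnal2 was lower in the paused table (-0.47) and Hdhd2 was called in neither. Smad3 and Smad6 lie 195 kb apart on the same strand of chromosome 9. Aagab, 2179 bp from the far end of Smad3, was called in neither of the authors' deposited tables (adjusted p 0.0737 and 0.645). Lctl, 95 kb from Smad6, was higher in the authors' deposited paused table (0.58, adjusted p 0.0311). Zwilch, 115 kb from Smad6, was also higher there (0.13, adjusted p 0.0071). Neither was called in the authors' deposited control table (adjusted p 0.103 and 0.418). Iqch, 2300009A05Rik and 1700055C04Rik, also near these members, were called in neither of the authors' deposited tables. No annotated gene that overlaps a member is in either table.

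The pathway around the Smads was described through 7 lists of genes, whose counts are to be read against the shares over all genes, 19.5% higher and 21.9% lower in control and 20.5% higher and 22% lower in paused cells. The lists overlap, so their counts are not independent. Lefty1, Lefty2 and Nodal stand in both the ligand and the Smad2 and Smad3 target lists. Skil and Pmepa1 (regulators), Eomes and Mixl1 (partners) and Tdgf1 (receptors) recur among those targets. Bambi stands both with the receptors and with the targets of Smad1, Smad5 and Smad9. Of 13 Smad2 and Smad3 target genes, 12 were in the authors' deposited tables. In control cells 9 fell and 1 rose (median -1.22), and in paused cells 9 fell and none rose (median -0.96). The genes with the largest changes were T (the mesoderm factor brachyury) and the Nodal antagonists Lefty1 and Lefty2, all lower in both of the authors' deposited tables. Lefty1, for example, changed by -2.52 (SE 0.14) and -3.34 (SE 0.21) in the authors' deposited tables.

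Targets of Smad1, Smad5 and Smad9 lay on the other side. All 10 listed genes were in the authors' deposited tables, with 7 higher and 1 lower in control cells (median 0.48) and 8 higher and none lower in paused cells (median 0.69), where 19.5% and 20.5% of all genes were higher. Msx2, a homeobox gene, rose by 1.01 (SE 0.16) and 1.17 (SE 0.17) in the authors' deposited tables. Id1, an inhibitor of basic helix-loop-helix factors, rose by 0.43 (SE 0.07) in control and 0.91 (SE 0.07) in paused cells of the authors' deposited tables. Its changes differed by 0.48 (SE 0.10, adjusted p 3.57e-04). Id3 was the other gene of this list called for the difference (0.35, SE 0.08, adjusted p 0.00177). It rose by 0.45 (SE 0.05) and 0.80 (SE 0.06) in the authors' deposited tables. Dusp9, a phosphatase that acts on ERK, rose by 0.73 (SE 0.07) and 0.85 (SE 0.07) in the authors' deposited tables.

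Among ligands of the TGF-beta, activin and Nodal group, 11 of 13 listed were in the authors' deposited tables, with 2 higher and 5 lower in control cells and none higher and 7 lower in paused cells. The Nodal antagonists Lefty1 and Lefty2, counted in this list too, were among those lower in both conditions. Tgfb1 was lower in both, at -0.80 (SE 0.15) and -0.65 (SE 0.13) in the authors' deposited tables. Of 17 BMP ligands and antagonists, the authors' deposited control table held 15, with 2 higher and 4 lower, and that for paused cells held 14, with 3 higher and 3 lower. The counts of this list lie near the shares over all genes. Bmp4, a BMP ligand, was lower in both, at -0.50 (SE 0.10) and -0.56 (SE 0.09) in the authors' deposited tables.

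Receptors and co-receptors were called about as often as all genes. Of 16 found, 4 were higher and 3 lower in the authors' deposited control table, and 3 higher and 5 lower in that for paused cells, with medians of 0.02 and 0.00, near the shares and medians over all genes. Eng, the co-receptor endoglin, rose by 0.54 (SE 0.10) and 0.48 (SE 0.06) in the authors' deposited tables. Acvr2b, a type II activin receptor, was lower, at -0.32 (SE 0.04) and -0.25 (SE 0.05) in the authors' deposited tables. Bambi, a decoy receptor, rose by 0.31 (SE 0.07) and 0.23 (SE 0.08) in the authors' deposited tables.

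Of 24 regulators of Smad proteins, all were found, with 4 higher and 7 lower in the authors' deposited control table and 5 higher and 6 lower in that for paused cells, again near the shares over all genes. Ski, a corepressor that binds Smads, was lower, at -0.36 (SE 0.04) and -0.68 (SE 0.06) in the authors' deposited tables. The paused change of Ski minus its control change was -0.32 (SE 0.07, adjusted p 0.00298). Usp15, a deubiquitinase, was the other regulator called for this difference (0.27, SE 0.05, adjusted p 1.11e-04). Skil, a related corepressor, was lower, at -0.63 (SE 0.07) and -0.32 (SE 0.07) in the authors' deposited tables. Nedd4l, a ubiquitin ligase that targets activated Smad2 and Smad3, rose by 0.62 (SE 0.08) and 0.62 (SE 0.06) in the authors' deposited tables. Of 15 DNA-binding partners and coactivators, 2 were higher and 7 lower in the authors' deposited control table, and 2 higher and 3 lower in that for paused cells. Ncoa3, a coactivator, rose by 0.39 (SE 0.05) and 0.39 (SE 0.03) in the authors' deposited tables. Jun fell by 0.56 in the authors' deposited control table (SE 0.23, adjusted p 0.0432). In that for paused cells Jun was at -0.51 and was not called (SE 0.26, adjusted p 0.105). Eomes, a T-box factor, fell by 0.94 in the authors' deposited control table (SE 0.18) and was at -0.06 (SE 0.18) in that for paused cells. This difference was 0.89 (SE 0.25, adjusted p 0.0326).

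**Figure D4:**
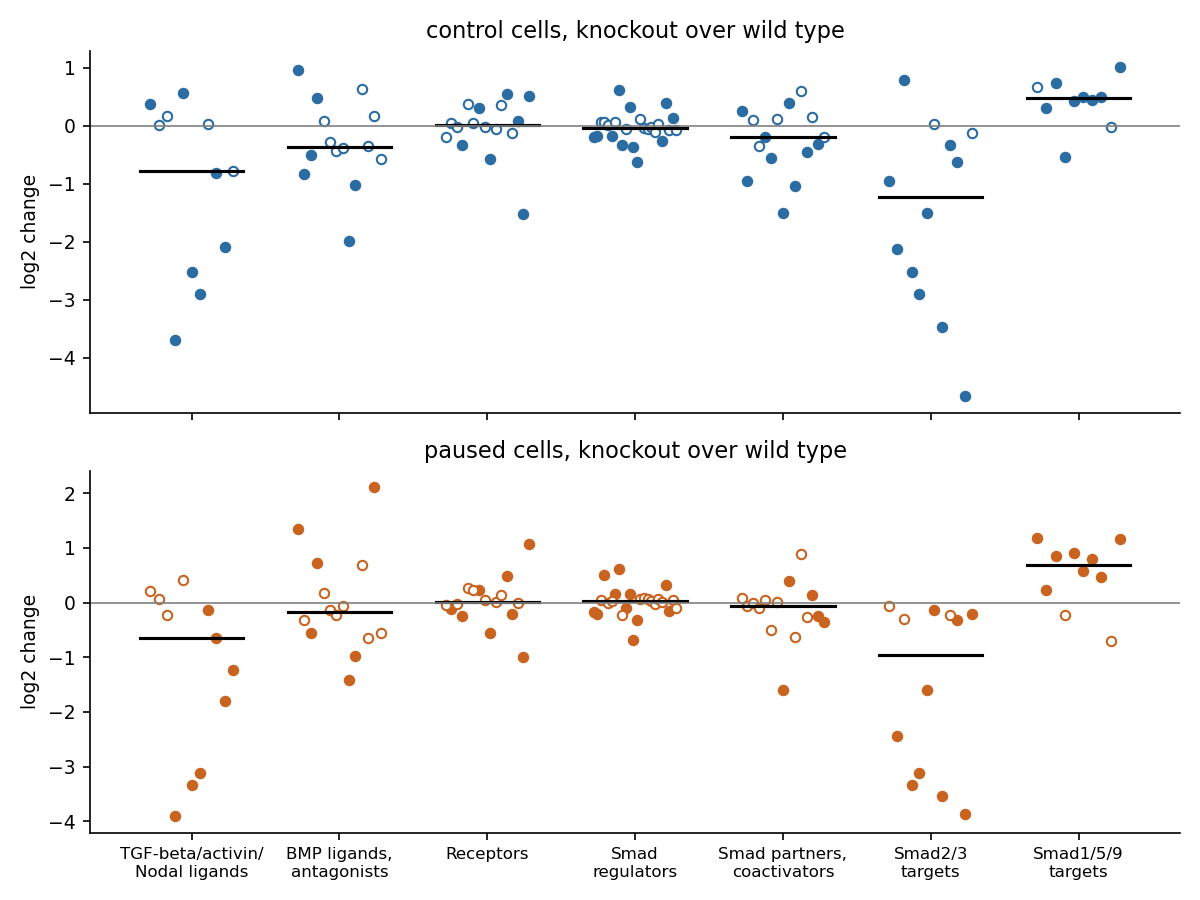
Log2 change, knockout over wild type, of each gene of 7 pathway lists found in both tables, for control (top) and paused (bottom) cells in the authors' deposited tables; filled points have an adjusted p under 0.05, and black lines are medians of the points shown. The Smad2/3 targets lie mostly below 0 and the Smad1/5/9 targets mostly above 0 in both conditions.

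Genes outside the family with a pattern like that of Smad2 were sought among the 741 called lower in both tables with a mean within 2-fold of Smad2, by the Euclidean distance between the pairs of log2 changes. This likeness rests on 2 values a gene. Ski was the nearest, at a distance of 0.05, and was lower, at -0.36 and -0.68, in the authors' deposited tables for control and paused cells. Mt2, a metallothionein, followed at 0.05 with -0.40 and -0.63, and Scarb2, a lysosomal membrane protein, at 0.07 with -0.32 and -0.69, in the authors' deposited tables.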

How the data were processed

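Sample titles gave the genotype and treatment. The submitters' processing notes list FastQC, Trim Galore, HISAT2 and featureCounts and the build mm10, without versions. DESeq2 gave the values the authors deposited, per the file headers and those notes. The use of strand, the annotation and the libraries in each comparison are not given in the sources used here. Per the file headers, the mean normalized count (unit signal) was averaged over libraries by the authors. The change and its standard error are deposited log2 values, the statistic is a deposited score, and p-values and adjusted p-values are those of the authors. The statistic equalled the change over its standard error, and the adjusted p a recomputed Benjamini-Hochberg value to within 1 percent, in 100% of rows.

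The authors' tests were used as they stand. For the difference between conditions, a z was formed with the 2 standard errors added in quadrature, and its two-sided normal p was adjusted over the 19134 genes in both tables; the tables share no library per the labels. Exon lengths and positions came from GENCODE M21 (GRCm38), matched to 87.8% and 87.2% of symbols, and promoters of Smad1, Smad3, Smad5, Smad6 and Smad9 from RefSeq. Neighbours were ordered by start in GENCODE. Of each list, at most 3 called genes with at least 5 ppm in both tables are named, by the larger change. All members are named, as are the 3 genes nearest in pattern to Smad2. Zbtb7c was named as a neighbour of Smad2, and Gm20544, Aagab, Ctif, Gm10532, 2010010A06Rik, Dym, Ier3ip1, Katnal2, Hdhd2, Usp15, Id3 and the embryonic stem cell markers after their values were seen. Lctl, Zwilch, Iqch, 2300009A05Rik and 1700055C04Rik were likewise named after their values were seen. The members and lists were chosen with earlier results of these data known. Alternatives were stricter thresholds and other scalings. Python 3.11.15, numpy 2.4.6, scipy 1.17.1 and pandas 2.3.3 were used.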

Additional observations from a re-analysis of the deposited data

Results flagged for a closer look

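The knockout change of Smad3 differed between the conditions by the test of the difference itself. It was -0.48 on the log2 scale as the paused change minus the control change (SE 0.11, adjusted p 0.00604), from 0.26 in the authors' deposited control table and -0.21 in the authors' deposited paused table.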

How the results depend on the processing

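No member changed direction under an alternative planned at the outset. Of these, only centring on the median, equal summed counts and subtraction of the chromosome median could turn a direction. The others leave the change of a member as it is. Against a change of at most 1.2-fold, 2 members were called in control cells (Smad6 and Smad9), 4 in paused cells (Smad2, Smad6, Smad7 and Smad9) and 0 for the difference. With test statistics divided by their middle spread over all genes, which was 2.76, 2.80 and 1.23 for the control change, the paused change and the difference, 0, 2 (Smad2 and Smad6) and 0 members were called, and 2, 4 and 2 had an unadjusted p under 0.05. Against a 1.2-fold difference, Smad3 alone had one. Over all genes, these scaled tests on the DESeq2 results called 293, 450 and 35. Whether true changes in many genes or standard errors that are too small set this spread was not tested. Under an adjusted p of 0.01, 5 members were called in paused cells, as with equal summed counts, where the table's changes moved by 0.04. Among genes with at least 5 ppm the paused change of Smad3 was called (adjusted p 0.0452), and Smad9 was left out in both tables. The Smad1 call in paused cells was lost when the median of its chromosome was subtracted (adjusted p 0.0663). The Smad2 and Smad3 sum moved by less than its standard error with means over 4 and 4 libraries or the longest transcripts, which also kept the order of levels. With the change read as wild type over knockout, an alternative chosen after seeing the data that turns the sign of every change, the log2 change of this sum was 0.11 in control and 0.52 in paused cells, in place of -0.13 and -0.53. No paired analysis was possible because the tables hold no values of single libraries, and no library could be left out for the same reason.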
